A study of Mus musculus with 10 samples.

Results

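The unfolded protein response and the integrated stress response were followed through 34 named genes, from the stress sensors of the endoplasmic reticulum (ER) to the chaperones and biosynthetic enzymes they control. A gene was represented by the probe set whose platform annotation gives that symbol and no other, and where several such probe sets existed by the brightest over all 10 arrays. All 34 genes had a probe set, out of 18193 genes so represented, and all 34 lay above the filter on dim signals, as did 12633 genes in all. They were sorted by role into 4 sensors and transducers, 17 genes of ER folding and degradation known as ATF6 and XBP1 targets (the ER branch), and 13 genes made up of ATF4, its partners and its targets (the ATF4 branch).

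RNA came from BMEL cells, a bipotential line derived from mouse embryonic liver whose cells can take on hepatocyte or bile duct features. Every sample received a locked nucleic acid (LNA) oligonucleotide by Oligofectamine transfection, either antisense to miR-30a (5 arrays) or scrambled (5 arrays), so both groups carry the transfection itself. Both groups had the same growth conditions in the labels, and no agent that provokes ER stress is named in the labels. No untransfected cells were analysed here, so a response common to both oligonucleotides would not show in the comparison. The labels leave unsaid if replicates were transfected separately; p-values accordingly describe variation among these samples alone, part or all of which may be technical.

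The unfolded protein response is the reaction of a cell to misfolded protein in the ER. The sensors IRE1 (Ern1), PERK (Eif2ak3) and ATF6 are held in check by the chaperone BiP (Hspa5) and are set free when BiP is occupied by unfolded clients. IRE1 then splices the Xbp1 transcript, ATF6 is cut to release a transcription factor, and both factors raise chaperones, disulfide isomerases and the degradation machinery. PERK phosphorylates the translation factor eIF2, which lowers protein synthesis but favours translation of ATF4. ATF4 is also reached through other eIF2 kinases that read amino acid shortage, viral RNA or haem deficiency, and this wider pathway is the integrated stress response. Hepatocytes secrete large amounts of protein and depend on the ER branch for it. Earlier work has linked Hspa5 to repression by miR-30d, and Xbp1 to repression by the opposite strand of a miR-30c precursor.

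The microRNAs concerned are shown because the antisense oligonucleotide was directed at miR-30a, while the seed decides which transcripts a microRNA can pair with. Capitals mark the seed, bases 2 to 8. The sequences are from RefSeq (GRCm38.p6), and miR-30a-5p lies at chr1:23272274-23272295 on the plus strand.
mmu-miR-30a-5p: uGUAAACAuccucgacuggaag
mmu-miR-30c-5p: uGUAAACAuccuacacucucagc
mmu-miR-30e-5p: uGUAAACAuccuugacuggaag
mmu-miR-30c-2-3p: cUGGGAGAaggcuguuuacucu
The first 3 share the seed GUAAACA and differ in their 3′ part, whereas miR-30c-2-3p, the strand linked to Xbp1, has the seed UGGGAGA. The labels do not say which strand of miR-30a the oligonucleotide matches, and no probe set of the annotation measures miR-30a itself, so the knockdown could not be checked on these arrays.

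The 10 arrays had medians from 5.21 to 5.24 on the log2 scale. Of the 11 markers of liver epithelial cells, 10 were tested and none passed (limma adjusted p under 0.05), beside 1.53% of all genes tested. The keratin genes Krt8, Krt18 and Krt19 had mean log2 levels between 13.48 and 13.77, Hnf4a was at 10.69 and 10.67 and Foxa2 at 10.30 and 10.33 in scrambled and antisense arrays. Albumin was near the filter level (4.73 and 4.70), Afp was at 6.33 and 6.43 and Epcam at 6.34 and 6.33. Sox9, a gene of bile duct and progenitor cells, was higher in all 5 antisense arrays than in any scrambled array, by 0.17, with an adjusted p of 0.0662 (0.0571 with the replicate block). The groups did not overlap, in either direction, for 3.92% of all genes tested. Of 15 markers of blood, stellate and endothelial cells, 5 (Ptprc, Adgre1, Col1a1, Pecam1 and Cdh5) had a mean over all arrays under the filter level of 4.56. The other 10 were above it. Among these, Flt1 was at 8.27 and 8.17, Csf1r at 6.41 and 6.47 and Kdr at 6.09 and 6.08 in scrambled and antisense arrays. These levels are like those of some liver markers, so they do not show that other cell types were absent. The macrophage-associated gene Cd68 was higher in antisense arrays by 0.39 (limma adjusted p = 0.0176), with Csf1r at 0.05 and Lyz2 at 0.03. Cd68 was the only 1 of the 10 tested to pass, beside the same 1.53% of all genes tested. Any part of this in the values below was not tested.

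Across the whole response, levels in antisense arrays lay close to those in scrambled arrays. None of the 34 genes passed the threshold (limma adjusted p under 0.05), against 193 of 12633 genes tested, or 1.53% (1.16% higher and 0.372% lower in antisense). With the replicate number as a block no member passed either, against 3.05% of all genes (2% higher and 1.04% lower). At an unadjusted p under 0.05 there was 1 member, Ddit3, against 12.9% of all genes (4.5% lower and 8.41% higher). With the block there were 2, Ddit3 and Herpud1, both lower, against 17.2% (6.45% lower and 10.7% higher). Of the 34 changes, 20 were below 0 and 14 above, with a median of -0.016 on the log2 scale, beside a median of 0.0084 over all genes tested. The median size of a change, without its sign, was 0.038 for the members and 0.047 for all genes tested. The median standard errors were 0.057 and 0.053, so the members were measured about as precisely as other genes. The changes ran from -0.16 (Trib3) to 0.09 (Sdf2l1), and the 95% intervals of the 34 genes lay between -0.40 and 0.27, that is between 0.756 and 1.21 of the scrambled level.

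**Figure D1:**
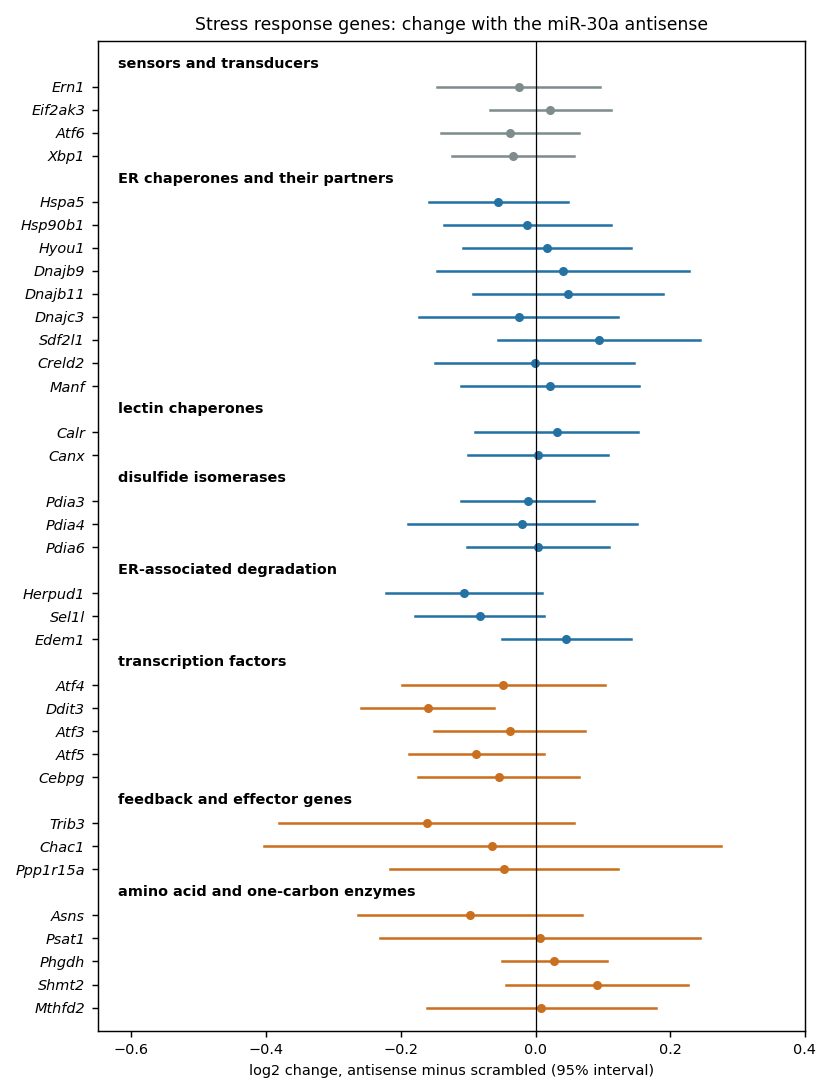
Log2 change of each of the 34 genes (points, antisense minus scrambled, 5 arrays each) with its 95% interval from the limma fit (lines), grouped by role and coloured by branch. Ddit3 has the only interval that excludes 0, and the 8 transcription factor and feedback genes of the ATF4 branch all lie to the left of 0.

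The changes of the 4 sensors and transducers ran from -0.038 to 0.022 at their brightest probe sets. Xbp1, the transcription factor gene whose transcript IRE1 splices, stood at 11.23, 11.24, 11.25, 11.24 and 11.20 in scrambled arrays 1 to 5 and at 11.19, 11.21, 11.30, 11.08 and 11.21 in antisense arrays 1 to 5. The groups overlapped, and antisense array 4 was the lowest of all 10. The change was -0.03 (SE 0.042, adjusted p = 0.817) with an interval from -0.12 to 0.06. Splicing of Xbp1 was not analysed here. Atf6 was at 8.06, 7.95, 7.95, 7.92 and 7.86 in scrambled and at 7.82, 7.98, 7.95, 7.86 and 7.95 in antisense arrays. Its change was -0.04 (SE 0.047, adjusted p = 0.814), with partial overlap of the groups. The remaining Atf6 probe sets had changes of the opposite sign, 0.07 and 0.09. Ern1, the kinase and nuclease IRE1, had a scrambled mean of 8.14 ± 0.13 and an antisense mean of 8.11 ± 0.033 (SD, n = 5 each). For the PERK gene Eif2ak3 these means were 8.69 ± 0.073 and 8.71 ± 0.025 (SD, n = 5 each). At the brightest probe sets, the intervals of these 4 genes lay between -0.15 and 0.11. The remaining Ern1 probe sets above the filter were at -0.17 (SE 0.11) and 0.017.

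Promoters of the ER branch genes were searched for elements through which ATF6 and XBP1 are known to act. The sequence of Hspa5 is shown as the standard example of the ER stress response element (ERSE). At this site ATF6 and XBP1 act together with NF-Y. The window covers 250 bases before and 50 after the gene start (RefSeq, GRCm38.p6, chr2:34771840-34772139, plus strand), and capitals mark the match to the element, searched as CCAAT, any 9 bases and CCACG.
Hspa5: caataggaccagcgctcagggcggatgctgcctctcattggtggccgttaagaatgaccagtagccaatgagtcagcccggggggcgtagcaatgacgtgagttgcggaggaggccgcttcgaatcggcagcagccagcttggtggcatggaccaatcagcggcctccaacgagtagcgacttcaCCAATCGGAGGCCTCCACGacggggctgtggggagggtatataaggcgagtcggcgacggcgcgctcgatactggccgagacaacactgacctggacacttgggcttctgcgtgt
The exact motif, searched on both strands, begins 65 bases before the start of Hspa5. It was present in 39 of 32851 promoter windows of this length, or 0.119%, and in 7 of the 15 ER branch genes with a window in the table. None of the 13 ATF4 branch genes or the 3 sensors with a window held it. The other 6 carriers are shown with 14 bases on either side, in the direction of the gene; the element runs on the opposite strand in Calr, Creld2 and the second Hsp90b1 match.
Hsp90b1, first match, chr10:86705624-86705670, minus strand: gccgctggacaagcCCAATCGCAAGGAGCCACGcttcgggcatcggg
Hsp90b1, second match, chr10:86705519-86705565, minus strand: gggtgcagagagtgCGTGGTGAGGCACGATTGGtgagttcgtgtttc
Calr, chr8:84847061-84847107, minus strand: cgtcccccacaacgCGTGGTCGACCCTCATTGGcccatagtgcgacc
Canx, chr11:50325786-50325832, minus strand: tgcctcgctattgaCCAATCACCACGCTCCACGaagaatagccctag
Pdia6, chr12:17266477-17266523, plus strand: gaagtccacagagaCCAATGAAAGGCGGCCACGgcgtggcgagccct
Dnajc3, chr14:118937813-118937859, plus strand: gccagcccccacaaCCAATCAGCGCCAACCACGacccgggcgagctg
Creld2, chr15:88819506-88819552, plus strand: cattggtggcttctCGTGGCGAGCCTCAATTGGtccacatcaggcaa
The 7 genes with the element had changes from -0.06 to 0.03 (median -0.0011), and the 8 ER branch genes whose window lacked it had changes from -0.11 to 0.09 (median 0.015). A match is a description of the sequence and does not show that a factor was bound.

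Among the ER chaperones, Hspa5, which encodes BiP, was at 12.97, 13.03, 13.02, 12.96 and 12.95 in scrambled arrays and at 12.88, 13.10, 12.90, 12.91 and 12.87 in antisense arrays. Antisense array 2 was the highest of all 10, while the other 4 antisense arrays lay below every scrambled array. The change was -0.06 (SE 0.048, adjusted p = 0.71), or -0.10 without antisense array 2, where the adjusted p was 0.28. The probe sets of Hspa5 did not share a sign, at -0.06, -0.10 and 0.07. Hsp90b1, the ER paralogue of HSP90 known as GRP94, was at 12.52, 12.70, 12.58, 12.59 and 12.58 in scrambled and at 12.57, 12.70, 12.56, 12.68 and 12.41 in antisense arrays. The groups overlapped, with antisense array 5 below every scrambled array (change -0.012, SE 0.057, adjusted p = 0.962).

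Sdf2l1, a partner of BiP in the ER lumen, had the highest change of the 34, from 8.78, 9.08, 8.95, 8.97 and 8.72 in scrambled to 8.94, 9.14, 8.92, 9.05 and 8.92 in antisense arrays. It was higher in antisense in 4 of 5 pairs of equal replicate number but overlapped widely (change 0.09, SE 0.069, adjusted p = 0.642, and 0.295 with the replicate block). The BiP cochaperones of the DnaJ family were at 0.04 (Dnajb9), 0.05 (Dnajb11) and -0.02 (Dnajc3). The nucleotide exchange chaperone Hyou1 was at 0.017, and the ER-stress-inducible secreted factors Manf and Creld2 were at 0.021 and -0.0011. The lectin chaperones calreticulin (Calr) and calnexin (Canx), which hold newly made glycoproteins, were at 0.03 and 0.0036. The disulfide isomerase genes Pdia3, Pdia4 and Pdia6 were at -0.012, -0.019 and 0.0038. None of these genes had an interval beyond -0.19 or 0.24.

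The lowest changes of the ER branch were those of the degradation genes Herpud1 and Sel1l, while Edem1, of the same role, was at 0.05. Herpud1, a membrane scaffold of the ubiquitin ligase complex that removes misfolded proteins, was at 10.51, 10.39, 10.42, 10.31 and 10.22 in scrambled arrays and at 10.28, 10.25, 10.33, 10.19 and 10.27 in antisense arrays. The antisense array was the lower in 4 of 5 pairs, with overlap between the groups (change -0.11, SE 0.053, adjusted p = 0.44, interval from -0.22 to 0.01). Its second probe set above the filter was at -0.08. Without scrambled array 1, which held the highest Herpud1 value, the change was -0.07.

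Sel1l, the adaptor of the ligase HRD1, was at 9.38, 9.30, 9.32, 9.35 and 9.31 in scrambled arrays and at 9.23, 9.37, 9.28, 9.16 and 9.20 in antisense arrays. All antisense arrays except the second lay below every scrambled array (change -0.08, SE 0.044, adjusted p = 0.475). Its other 4 probe sets above the filter ran from -0.03 to 0.02, so the larger value belongs to the brightest probe set. Edem1, which hands misfolded glycoproteins to the degradation route, was at 0.05. Promoters of Herpud1 and of the cochaperone gene Dnajb11 held the related element ERSE-II, searched as ATTGG, any base and CCACG on both strands and found in 12 of the 32851 windows (0.0365%).
Herpud1, chr8:94386363-94386401, plus strand: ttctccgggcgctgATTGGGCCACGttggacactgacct
Dnajb11, chr16:22857838-22857876, plus strand: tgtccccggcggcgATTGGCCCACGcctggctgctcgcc
The changes of these genes, -0.11 and 0.05, lay on opposite sides of 0.

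**Figure D2:**
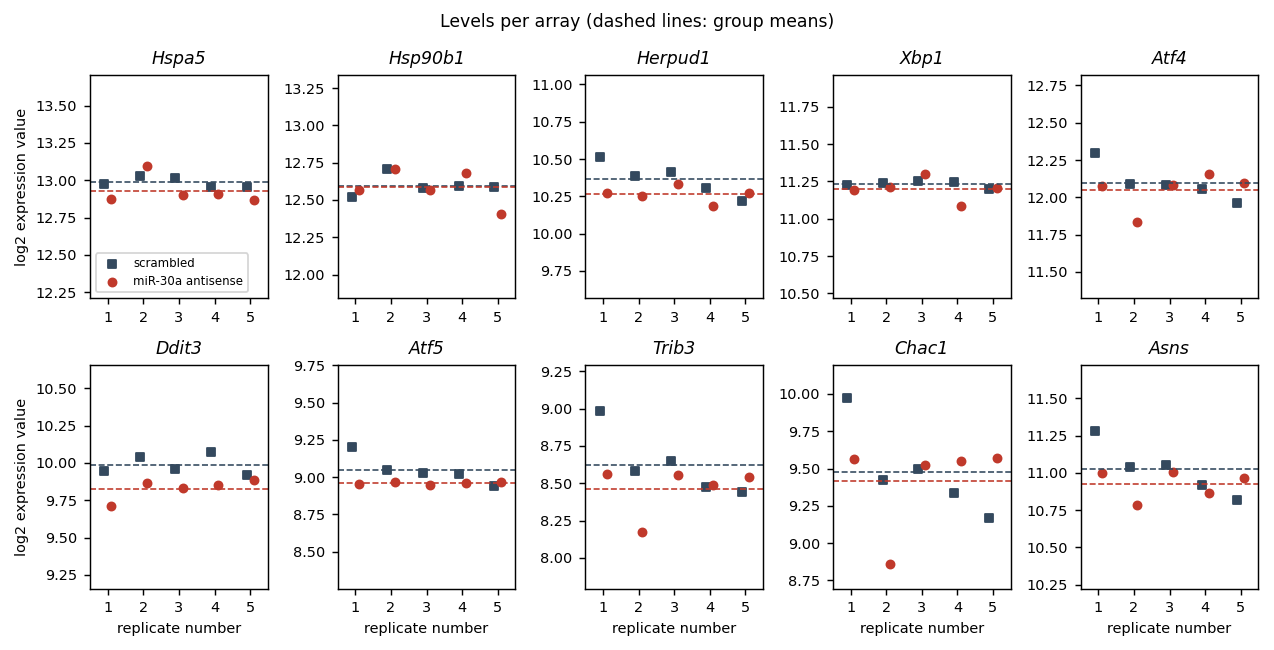
Log2 expression values of 10 genes in each array, against the replicate number, with squares for scrambled, circles for antisense and dashed lines for group means. Every panel spans the same 1.5 log2 units. Only Ddit3 has all 5 antisense arrays below all 5 scrambled arrays. Scrambled array 1 is high and antisense array 2 low for Atf4, Trib3, Chac1 and Asns.

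In the ATF4 branch 9 of 13 changes were below 0, beside 44.9% of all genes tested, and the median was -0.05. Ddit3, which encodes CHOP, the transcription factor that couples prolonged ER stress to cell death, was the member with the smallest p. It was at 9.94, 10.04, 9.96, 10.07 and 9.92 in scrambled arrays and at 9.71, 9.87, 9.83, 9.85 and 9.88 in antisense arrays. The groups did not overlap, which held for no other of the 34 and for 3.92% of all genes tested (1.18% lower in antisense). The means were 9.99 ± 0.065 and 9.83 ± 0.069 (SD, n = 5 each), a change of -0.16 (SE 0.046, interval from -0.26 to -0.06), so the antisense level was 0.895 of the scrambled level. It was lower in 5 of 5 pairs, as were 6.67% of all genes tested. The adjusted p was 0.12, or 0.075 with the replicate block, so the difference missed the threshold in both fits. The second Ddit3 probe set above the filter was at -0.20 (SE 0.068). That SE came from a fit over all probe sets, in which the brightest Ddit3 probe set had an SE of 0.051. Across the alternatives the change stayed between -0.18 and -0.13, with adjusted p from 0.0577 to 0.238.

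Atf4, the transcription factor at the head of the branch, was at 12.29, 12.09, 12.08, 12.06 and 11.96 in scrambled arrays and at 12.08, 11.83, 12.08, 12.16 and 12.10 in antisense arrays. The highest value was that of scrambled array 1 and the lowest that of antisense array 2 (change -0.05, SE 0.069, adjusted p = 0.848). The change was 0.0064 without antisense array 2 and 0.0017 without scrambled array 1. ATF4 is controlled mainly at translation, which these arrays do not measure. Atf5, a related factor, was at 9.20, 9.05, 9.03, 9.02 and 8.94 in scrambled and at 8.96, 8.96, 8.95, 8.96 and 8.97 in antisense arrays. Antisense values were nearly equal (SD 0.0076) and only scrambled array 5 lay below them (change -0.09, SE 0.046, adjusted p = 0.466). The change was -0.05 without scrambled array 1. Atf3, a stress-inducible repressor and activator, was at -0.04 (adjusted p = 0.833). Cebpg, a dimer partner of ATF4, was at -0.05 (adjusted p = 0.761). The remaining Cebpg probe sets gave -0.11 and 0.06.

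Feedback and effector genes of the branch included Chac1, the member with the widest spread in both groups (SD 0.30 and 0.31). Trib3, a pseudokinase that restrains ATF4 and CHOP, was at 8.98, 8.59, 8.65, 8.47 and 8.44 in scrambled arrays and at 8.56, 8.18, 8.56, 8.49 and 8.54 in antisense arrays. Its change of -0.16 was as large as that of Ddit3, but the SE was 0.10 and the adjusted p 0.56. Without scrambled array 1 the change was -0.07, and without antisense array 2 it was -0.09. Chac1, a glutathione-degrading enzyme and a sensitive ATF4 target, was named for this spread after its values were seen. It was at 9.97, 9.42, 9.50, 9.34 and 9.17 in scrambled arrays and at 9.56, 8.86, 9.53, 9.55 and 9.57 in antisense arrays, so 4 of the antisense arrays lay between 9.53 and 9.57 and the second was far below them. The change was -0.06 (SE 0.16, adjusted p = 0.926), and 0.07 without antisense array 2. Ppp1r15a, which encodes GADD34, the phosphatase subunit that reverses eIF2 phosphorylation, was at -0.05 (adjusted p = 0.875) and differed from Trib3 and Chac1 in being highest, not lowest, in antisense array 2.

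Of the 5 enzymes of amino acid and one-carbon metabolism, 4 had changes above 0. Asns, asparagine synthetase, was at 11.28, 11.04, 11.06, 10.92 and 10.82 in scrambled arrays and at 11.00, 10.79, 11.01, 10.86 and 10.97 in antisense arrays (change -0.10, SE 0.077, adjusted p = 0.673). The groups overlapped, and the change was -0.03 without scrambled array 1. The serine synthesis genes Phgdh and Psat1 were at 0.028 and 0.0067. The mitochondrial folate genes Shmt2 and Mthfd2 were at 0.09 and 0.0084, with adjusted p of 0.608 for Shmt2. The second probe sets of Psat1 and Mthfd2 were below 0, at -0.036 and -0.056. Probe sets of Shmt2 above the filter ran from 0.014 to 0.10 and those of Phgdh from -0.018 to 0.048. Psat1 had a wide spread within each group (SD 0.25 and 0.17), whereas Phgdh was tightly held (SD 0.031 and 0.041).

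ATF4 acts with C/EBP partners at a composite site, the C/EBP-ATF response element (CARE), and the members whose promoter window held it are shown because it is the kind of site at which ATF4 is known to act. The motif TGATGNAA, searched on both strands, was in 1304 of the 32851 windows (3.97%), and in 4 of the 13 ATF4 branch genes and 1 of the 15 ER branch genes. Capitals mark the match, with 14 bases on either side; it runs along the gene in Asns and on the opposite strand in the others.
Asns, chr6:7693211-7693246, minus strand: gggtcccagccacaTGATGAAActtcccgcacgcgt
Chac1, chr2:119351035-119351070, plus strand: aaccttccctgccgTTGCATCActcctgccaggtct
Trib3, chr2:152344025-152344060, minus strand: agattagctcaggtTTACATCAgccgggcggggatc
Atf3, chr1:191183422-191183457, minus strand: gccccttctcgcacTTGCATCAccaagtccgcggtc
Herpud1, chr8:94386303-94386338, plus strand: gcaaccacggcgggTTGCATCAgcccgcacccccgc
The 4 ATF4 branch genes with the motif were all below 0 (median -0.08, from -0.16 to -0.04). Of the 9 without it, 5 were below 0 (median -0.05, from -0.16 to 0.09). The ranges overlap, and Ddit3, with the smallest p, had no match in this window.

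To compare arrays, each gene's mean over the 10 arrays was subtracted and the deviations were averaged over a branch. ER branch means were -0.047, 0.078, 0.025, 0.0027 and -0.058 in scrambled arrays 1 to 5 and -0.041, 0.14, 0.0018, -0.030 and -0.072 in antisense arrays 1 to 5. Arrays of equal number thus had similar ER branch means in both groups, with the second high and the fifth low. Antisense array 2 was the highest of its group for 15 of the 17 ER branch genes, beside 24.4% of all genes tested, and scrambled array 2 was the highest for 10 of 17, beside 21.3%.

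**Figure D3:**
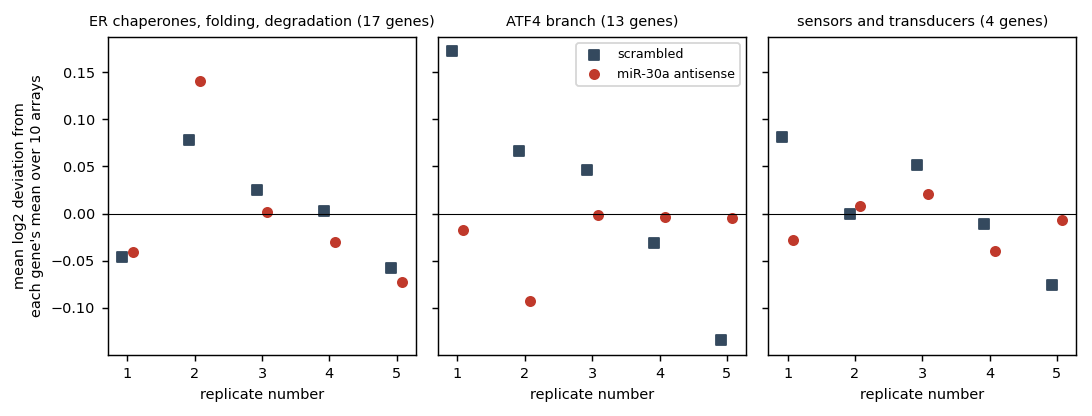
Mean log2 deviation of each branch in each array, against the replicate number, with squares for scrambled and circles for antisense arrays. ER branch means of equal number lie close together in both groups, with number 2 highest (0.078 and 0.14), while ATF4 branch means run from -0.13 to 0.17 in scrambled arrays and from -0.093 to -0.0015 in antisense arrays.

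ATF4 branch means were 0.17, 0.067, 0.047, -0.031 and -0.13 in scrambled arrays and -0.017, -0.093, -0.0015, -0.0033 and -0.0046 in antisense arrays. Scrambled array 1 was the highest of its group for 8 of 13 genes, beside 22.9% of all genes tested, and scrambled array 5 the lowest for 12 of 13, beside 23.9%. Antisense array 2 was the lowest of its group for 6 of 13 (Atf4, Cebpg, Trib3, Chac1, Asns and Mthfd2), beside 28% of all genes tested, and the highest for 4 of 13 (Atf3, Ppp1r15a, Psat1 and Phgdh), beside 24.4%. Some genes of the branch had like values in arrays of equal number: Psat1 was high in arrays 1 to 3 and low in arrays 4 and 5 of both groups, and Ppp1r15a and Atf3 were highest in array 2 of both. The SD of the branch means was 0.039 in antisense and 0.11 in scrambled arrays. The difference between the group means was -0.048 for the ATF4 branch and -0.00039 for the ER branch, and the arrays of the 2 groups overlapped in both.

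**Figure D4:**
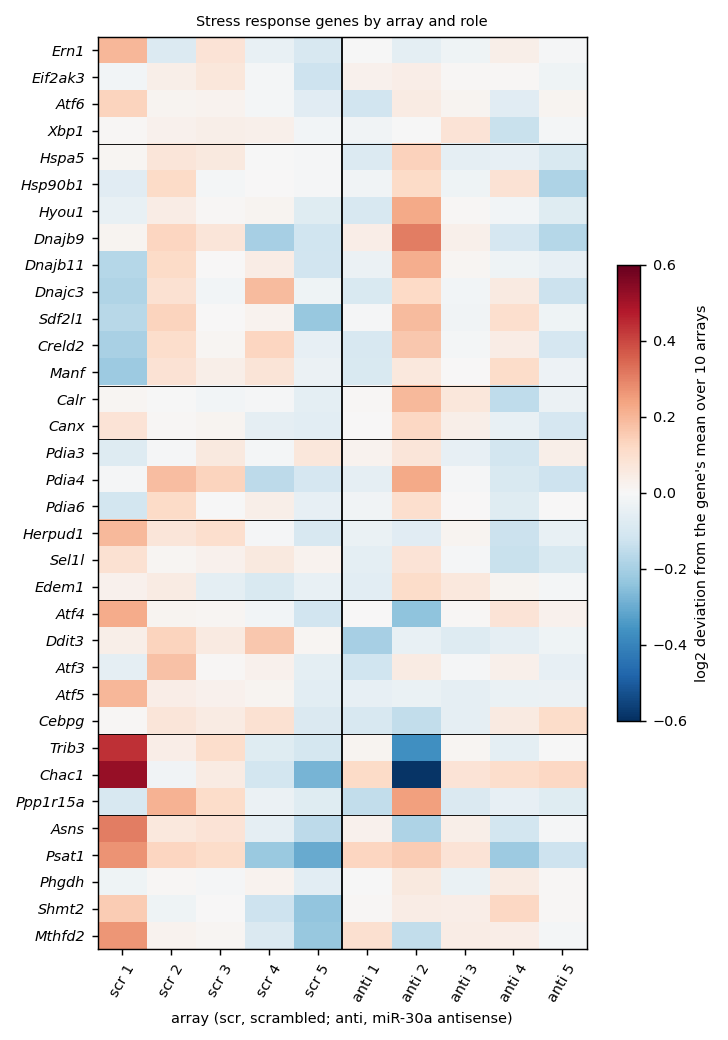
Log2 deviation of each of the 34 genes (rows, by role, separated by lines) from its own mean over the 10 arrays (columns), red for higher and blue for lower. Scrambled array 1 is red for Trib3, Chac1, Asns, Psat1 and Mthfd2, and antisense array 2 is red across the ER chaperones but blue for Atf4, Trib3 and Chac1.

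Several genes had further probe sets against which a value could be compared. Of the 82 probe sets of the members, 74 lay above the filter level, and 23 genes had more than 1 of them. For 13 of these 23 genes all probe sets shared a sign, and for 10 they did not. Both Trib3 probe sets (-0.16 and -0.18), both Asns probe sets (-0.10 and -0.09), both Herpud1 probe sets and both Ddit3 probe sets were below 0, whereas the probe sets of Xbp1, Hspa5 and Cebpg fell on both sides. Atf4 had a second probe set at -0.16, further from 0 than the brightest.

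The wider pathway was read from 87 further genes, listed by role, of which 82 had a probe set of their own and all 82 were tested. None passed the threshold, and 11 had an unadjusted p under 0.05 (8 lower, 3 higher), or 13 with the replicate block. Over all genes tested 12.9% had such a p (4.5% lower and 8.41% higher), or 17.2% with the block. The split by direction among these 82 genes was not tested. Their median change was -0.00033, with 41 below 0 and 41 above. Among the 82, the groups did not overlap for 2, beside 3.92% of all genes tested. Antisense was lower in all 5 pairs for 7 and higher for 4, beside 6.67% and 10.6% of all genes tested.

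Other ATF4 targets gave the lowest p-values of the wider set. Of 32 tested, 20 were below 0, with a median of -0.03. Nupr1, a small stress-inducible chromatin protein, was at 9.32, 9.23, 9.26, 9.25 and 9.26 in scrambled arrays and at 8.94, 8.80, 8.99, 9.15 and 9.15 in antisense arrays. The groups did not overlap and the change was -0.26 (SE 0.063), but the adjusted p was 0.0645, and 0.0561 with the replicate block. It passed with a stricter filter on dim probe sets (0.0455) and with a variance trend (0.0244). Slc38a2, an amino acid transporter gene, was at 11.08, 10.82, 10.87, 10.85 and 10.83 in scrambled and 10.75, 10.55, 10.71, 10.81 and 10.73 in antisense arrays, again without overlap (change -0.18, SE 0.061, adjusted p = 0.203). The transporter subunit gene Slc3a2 was at -0.14 (adjusted p = 0.286) and lower in 5 of 5 pairs, and the mitochondrial folate enzyme gene Aldh1l2 was at -0.19 (adjusted p = 0.296), or -0.12 without antisense array 5.

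Sesn2, a sestrin gene that responds to both ATF4 and p53, ran the other way. It was at 7.90, 7.70, 7.72, 7.66 and 7.75 in scrambled arrays and at 7.91, 7.83, 7.95, 7.96 and 7.96 in antisense arrays, higher in 5 of 5 pairs (change 0.18, SE 0.049, adjusted p = 0.106). Without scrambled array 1, the array closest to the antisense values, the change was 0.21 and the adjusted p was 0.0337.

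Of 38 further ER folding and degradation genes 18 were below 0 and 20 above, with a median of 0.0030. Ero1a, the oxidase that drives disulfide formation and is also induced by hypoxia, was at 9.84, 9.31, 9.34, 9.22 and 9.59 in scrambled arrays and at 9.14, 9.03, 9.17, 9.06 and 9.22 in antisense arrays. It was lower in 5 of 5 pairs, with a change of -0.33 (SE 0.099, adjusted p = 0.135, and 0.0589 with the replicate block), with scrambled array 1 the highest. Fkbp2, an ER prolyl isomerase gene, was at -0.10 (adjusted p = 0.263), and Creb3, a membrane-bound transcription factor gene, at 0.11 (adjusted p = 0.311), or 0.019 with the mean of its probe sets. The 12 tested genes of the eIF2 kinases, eIF2, eIF2B and their regulators had a median of 0.03, with 9 above 0.

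**Figure D5:**
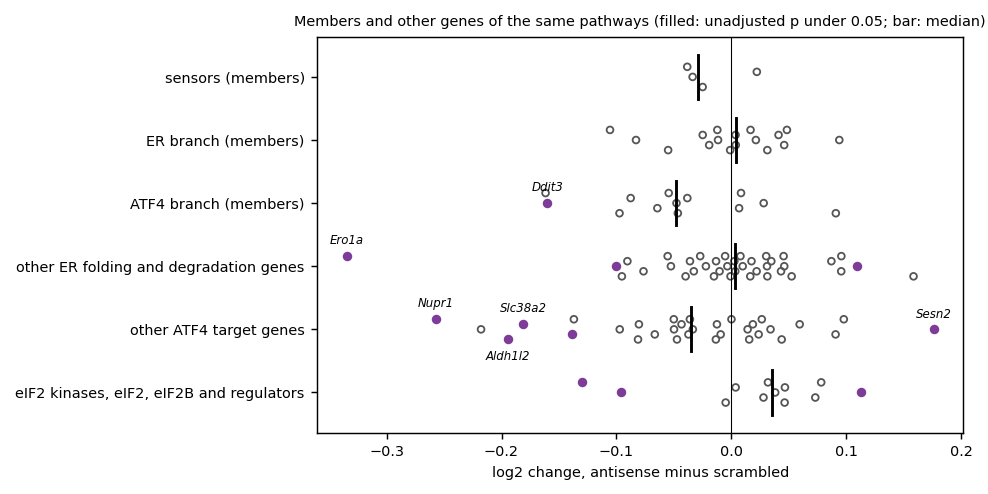
Log2 change of each tested gene (points, antisense minus scrambled), for the members by branch and for the other genes of the same pathways, with bars at the medians and filled points for an unadjusted p under 0.05. Medians of the 6 rows lie between -0.05 and 0.03, and Ero1a at -0.33 and Sesn2 at 0.18 mark the ends.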

How the data were processed

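The authors deposited expression on a log2 scale for 45101 probe sets (64 of them array controls); the scale was read from their highest value, 14.18. How the authors summarised and normalized them is not given in the sources used here. Per the labels, the input to amplification and biotin labelling was 100 ng RNA. The platform annotation gives 1 symbol for 34945 probe sets, which were used, and several for 932, which were not; symbols were updated through gene identifiers. For each of 18193 genes the brightest probe set was kept, and genes with a mean under 4.559, the 40% level of all probe sets, were left out, which left 12633. Groups and replicate numbers come from the titles.

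The group comparison used limma 3.58.1 (R 4.3.3; lmFit and eBayes, two-sided), Benjamini-Hochberg adjusted over all genes tested, threshold 0.05. The SE is that of the fit, and the interval is at 95%. Lists are described by counts and medians, without a test. The procedure was tested on simulated independent values with changes larger than those of the members. That test therefore does not show how often changes of the members' size would be found. The number of arrays limits the precision. Figures used matplotlib 3.10.9 in Python 3.11.15.

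The members and lists were chosen with earlier results of these data known. Genes given per array were Hspa5, Ddit3, Atf4, Xbp1, Asns, Trib3 and Hsp90b1, the 3 with the smallest p in the ER and ATF4 branches, the 2 smallest among the sensors, and, of the other pathway genes, the 8 smallest were named.

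Deviations from the group means over all genes correlated between arrays of equal number at 0.112 to 0.377, against -0.312 to 0.231 for unequal numbers, so the numbers met the rule for pairs (every same-number value over 0.1), from the values and not from the labels. The ranges for equal and unequal numbers overlap, so meeting this rule does not establish that arrays of equal number are pairs. Printed errors, intervals and adjusted p are from the fit without the block unless the block is named. Changes and errors of further probe sets of a gene came from a separate fit without the block. That fit covered all probe sets that are not array controls. Alternatives were a replicate block, quantile normalization, median centring, no filter or a 60% filter, the mean of a gene's probe sets, an intensity trend with robust variance, and leaving out each array.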

Additional observations from a re-analysis of the deposited data

Results flagged for a closer look

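Values far from the other 4 arrays of their group (a gap above 0.71 of the range, Dixon's 95% limit for 5 samples) were found in 8 of 90 groups examined. Chance flags about 1 in 20 independent groups, but these share the same 10 arrays, so the total cannot be set against that rate. The ATF4 branch mean is also built in part from genes that are flagged themselves. Of the 8, 7 belong to antisense array 2. It was the highest of its group for Hspa5 (13.10, others 12.87 to 12.91), Dnajb11 (9.76, others 9.50 to 9.55) and Ppp1r15a (8.74, others 8.35 to 8.45). It was the lowest for Atf4 (11.83, others 12.08 to 12.16), Trib3 (8.18, others 8.49 to 8.56) and Chac1 (8.86, others 9.53 to 9.57), and its ATF4 branch mean was -0.093, with the others from -0.017 to -0.0015. The remaining value is that of Slc38a2 in scrambled array 1 (11.08, others 10.82 to 10.87).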

How the results depend on the processing

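No member passed the threshold under any of the 17 alternatives, and the lowest adjusted p of a member in any of them was 0.0577 (Ddit3, with the intensity trend and robust variance). The replicate block changed no call among the members or the other pathway genes, while the count over all genes was 385 with the replicate block, 303 with the intensity trend, and between 92 and 201 with 1 array left out (95, 92 and 123 without antisense array 3, 4 or 5, and 101 without scrambled array 3). The count of other pathway genes was 1 (Nupr1) with the 60% filter or with the intensity trend, and ranged from 0 to 1 with 1 array left out, where it was Sesn2 without scrambled array 1. The ATF4 branch median stayed below 0 in all alternatives (-0.082 to -0.030). The ER branch median ranged from -0.032 to 0.030 and was below 0 with quantile normalization and without antisense array 2, scrambled array 1 or scrambled array 5. The sensor median ranged from -0.047 to 0.0089 and was above 0 with the mean of probe sets and without scrambled array 1.

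The sign was the same in all alternatives for 14 members, but the size often varied. Below 0 were Ddit3 (-0.18 to -0.13), Trib3 (-0.21 to -0.072), Asns (-0.15 to -0.033), Herpud1 (-0.14 to -0.070), Atf5 (-0.11 to -0.049), Sel1l (-0.11 to -0.025), Hspa5 (-0.097 to -0.028), Cebpg (-0.089 to -0.024), Xbp1 (-0.059 to -0.0050) and Ppp1r15a, which ran from -0.11 to -3e-06, the last without scrambled array 2. Above 0 were Sdf2l1 (0.049 to 0.14), Edem1 (0.024 to 0.067), Phgdh (0.016 to 0.042) and Shmt2 (0.044 to 0.14). With the mean of probe sets the change was 0.040 for Atf6, -0.014 for Psat1 and -0.024 for Mthfd2, and with quantile normalization it was -0.0031 for Canx and -0.0083 for Pdia6. With 1 array left out the sign varied, the cause not tested, for Ern1 (-0.052 to 0.022), Eif2ak3 (-0.0067 to 0.041), Hsp90b1 (-0.042 to 0.032), Hyou1 (-0.038 to 0.043), Dnajb9 (-0.030 to 0.089), Dnajb11 (-0.00056 to 0.084), Dnajc3 (-0.073 to 0.019), Creld2 (-0.050 to 0.031), Manf (-0.031 to 0.047), Calr (-0.013 to 0.073), Canx (-0.027 to 0.030), Pdia3 (-0.032 to 0.015), Pdia4 (-0.079 to 0.024), Pdia6 (-0.023 to 0.033), Atf4 (-0.082 to 0.0064), Atf3 (-0.057 to 0.00087), Chac1 (-0.14 to 0.075), Psat1 (-0.068 to 0.075) and Mthfd2 (-0.048 to 0.076).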
